A study of Mus musculus with 12 samples.

Results

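The class B scavenger receptors are a family of 3 genes, Scarb1, Cd36 and Scarb2, which were picked by symbol from a deposited table of 11022 genes. All 3 were in the table and all 3 were among the 9378 genes that passed the filter on low counts. Their levels come from 12 libraries of 3T3-L1 cells, a mouse line of preadipocytes that hormonal inducers turn into fat cells. The study asked how breast cancer cells without p53 affect that differentiation. In the KO CM group (3 libraries), the cells were differentiated in medium conditioned by p53-knockout WEP breast cancer cells. In the WT CM group (3 libraries), the medium came from p53 wild-type WEP cells. In the regular group (3 libraries), differentiation took place without conditioned medium, and the last group (3 libraries) was undifferentiated. The 3T3-L1 cells were wild-type in every group. To differentiate, they were given rosiglitazone (2 µM), dexamethasone (1 µM), insulin (1 µg/mL) and isobutylmethylxanthine (0.5 mM) from day 2 after confluence, for 2 days, then 2 days of insulin alone, then maintenance medium. KO CM and WT CM cultures got these media mixed 1 to 1 with conditioned medium, which diluted the inducers there and not in regular cultures. Between a CM group and regular cells, the effects of conditioned medium and of this dilution thus cannot be told apart. The serum was 10% fetal bovine serum during differentiation and 10% calf serum without it, so the effects of serum and of differentiation cannot be told apart. All differentiated groups received rosiglitazone, a direct agonist of PPARγ, the nuclear receptor of which Cd36 is a known target. The 3 genes were chosen with their levels in these libraries known, so their values are given as a description, with standard errors and without a test.

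Class B scavenger receptors span the membrane near both ends of the protein and hold a large glycosylated loop on the far side, crossed by a hydrophobic tunnel for lipids. SR-BI, the product of Scarb1, binds high-density lipoprotein (HDL) at the cell surface and takes up its cholesteryl esters without taking in the particle. CD36 takes up long-chain fatty acids and oxidized lipoproteins and binds thrombospondin, and in fat cells it is a main route of fatty acid entry. LIMP-2, the product of Scarb2, is a main protein of the lysosomal membrane.

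All 3 genes lie on the minus strand of mouse chromosome 5 (GRCm38, the build also called mm10, with GENCODE gene models). Scarb1 (ENSMUSG00000037936.15) spans bases 125277087 to 125341094, and its principal transcript has 13 exons, of which 12 carry coding sequence. Cd36 (ENSMUSG00000002944.15) spans bases 17781690 to 17888801, with 15 exons of which 12 are coding. Scarb2 (ENSMUSG00000029426.8) spans bases 92441314 to 92506833, with 12 exons, all of them coding. The coding sequences hold 509 codons in Scarb1, 472 in Cd36 and 478 in Scarb2. Gm42633 lies within Scarb1 on the same strand and Mir6415 within Scarb2 on the opposite strand, and the strand setting of the counting is not known from the labels. No annotated gene overlapped Cd36.

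The sequences of 2 start regions are shown to set Cd36, whose fold between groups was wide, beside Scarb2, and that of Scarb1 was not analysed here. Each runs from 250 bases before to 50 bases after the RefSeq start, read 5′ to 3′ on the gene's strand. RefSeq (GRCm38.p6) gave one for Cd36 at chr5:17835847-17836146 and one for Scarb2 at chr5:92505608-92505907, both on the minus strand. Capitals mark the CCAAT box (CCAAT) and the GC box (GGGCGG, or its reverse complement).
Cd36: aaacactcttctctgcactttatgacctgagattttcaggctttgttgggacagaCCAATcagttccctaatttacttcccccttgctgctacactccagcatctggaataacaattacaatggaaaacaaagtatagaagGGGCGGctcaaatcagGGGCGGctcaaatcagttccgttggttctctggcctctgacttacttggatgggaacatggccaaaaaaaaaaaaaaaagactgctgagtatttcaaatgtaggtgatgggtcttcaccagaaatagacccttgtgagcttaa
Scarb2: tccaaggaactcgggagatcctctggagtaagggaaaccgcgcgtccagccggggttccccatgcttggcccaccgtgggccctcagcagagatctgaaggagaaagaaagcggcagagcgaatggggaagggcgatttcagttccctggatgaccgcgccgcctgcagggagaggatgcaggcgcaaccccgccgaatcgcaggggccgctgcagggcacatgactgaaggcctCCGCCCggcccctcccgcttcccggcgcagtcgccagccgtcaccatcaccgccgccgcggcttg
The Cd36 window held 43.0% G and C and the Scarb2 window 67.3%, against a median of 52.7% over 32851 promoter windows of the same length. Cd36 had a CCAAT box at position -195 and 2 GC boxes at -109 and -93. Both GC boxes of Cd36 lay in a directly repeated 16-base unit, AGGGGCGGCTCAAATC. The unit was read from this window, which is the 1 of the 32851 windows that holds it. A unit chosen in this way is bound to be found there, so the count is no measure of how rare it is. Scarb2 had 1 GC box, on the other strand, at position -15. Searched on both strands, GC boxes were in 35.7% of all windows and CCAAT boxes in 37.4%. The DR1 element, the form of PPAR site searched as AGGTCA repeated after any 1 base, was in 0.0396% of windows and the E-box CACGTG in 7.15%, and neither was in the Cd36 or the Scarb2 window. The RefSeq start lies 52905 bases inside the longer GENCODE gene for Cd36 and 1176 bases inside it for Scarb2, so transcripts that begin further upstream start outside these windows.

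UMI totals were 987496 to 1376688 in KO CM, 1551876 to 2278126 in WT CM, 1101307 to 2589045 in regular and 1289754 to 1722617 in undifferentiated libraries. WT CM replicate 3 stood apart from its group, with a chi-square per degree of freedom over genes of 5.54 and 5.24 against the others, where all other pairs of replicates gave 1.38 to 2.54. The labels do not say that replicates were separate cultures, so a p-value here measures spread among libraries, possibly technical spread alone. The summed level of 7 adipocyte markers was 3374.0 to 4024.7 CPM in KO CM, 7827.0 to 8164.3 CPM in WT CM, 16541.2 to 17621.8 CPM in regular and 17.4 to 26.5 CPM in undifferentiated libraries. That of 6 preadipocyte markers was 1628.8 to 1809.3 CPM in KO CM, 1198.8 to 1290.3 CPM in WT CM, 256.7 to 310.6 CPM in regular and 987.0 to 1008.7 CPM in undifferentiated libraries. By group mean, Pdgfra, Ly6a, Thy1 and Dlk1 were highest in KO CM. Pdgfrb (213.0 CPM, against 188.3 in KO CM) and Cd34 (2.69 against 0.37 CPM) were highest in undifferentiated cells. The adipocyte markers were lower in both CM groups than in regular cells, also in WT CM, where Scarb1 was higher and Cd36 overlapped the regular range. Their part in the levels of the receptors was not tested. Fewer adipocytes and less RNA of a gene per adipocyte cannot be told apart in such bulk samples. Of 10 macrophage markers, 3 were in the table, at a summed 11.1 to 18.8 CPM in KO CM, 11.4 to 14.1 CPM in WT CM, 8.31 to 12.8 CPM in regular and 11.3 to 13.6 CPM in undifferentiated libraries. Of 9 epithelial markers, 2 were in the table (Krt8 and Krt18), at a summed 4.44 to 12.8 CPM in KO CM, 8.77 to 14.3 CPM in WT CM, 43.7 to 52.8 CPM in regular and 2.05 to 5.65 CPM in undifferentiated libraries. Of 8 endothelial markers, 1 was in the table (Flt1), at no more than 7.05 CPM in any library. Levels are CPM, counts relative to the TMM-scaled library size, given as mean ± SD of 3 libraries, and a difference on the log2 scale is given ± SE.

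Scarb1, the HDL receptor gene, was highest in WT CM and lowest in undifferentiated cells, and its 4 groups did not overlap. Its level was 309.0, 319.5 and 313.4 CPM in the KO CM libraries, 448.1, 472.5 and 491.8 CPM in WT CM, 415.1, 414.1 and 356.3 CPM in regular and 59.3, 51.5 and 60.9 CPM in undifferentiated libraries. All 3 KO CM libraries lay below all regular ones, while all WT CM libraries lay above them. The counts behind these values were 288 to 401 UMIs in KO CM, 660 to 1121 in WT CM, 456 to 1067 in regular and 73 to 119 in undifferentiated libraries. In the regular group, replicate 3 at 356.3 CPM lay below the other two. Group means were 314.0 ± 5.25 CPM in KO CM, 470.8 ± 21.9 CPM in WT CM, 395.2 ± 33.7 CPM in regular and 57.2 ± 5.02 CPM in undifferentiated cells. Scarb1 in regular cells was 6.86-fold its undifferentiated level, a log2 difference of 2.78 ± 0.10. In KO CM it stood at 79.4% of the regular level (-0.33 ± 0.09) and at 66.6% of the WT CM level (-0.59 ± 0.09). WT CM was 1.19-fold the regular level (0.25 ± 0.08). Both CM groups stayed well above undifferentiated cells, at 2.45 ± 0.10 for KO CM and 3.03 ± 0.10 for WT CM. Without WT CM replicate 3, KO CM minus WT CM was -0.55 for Scarb1 and WT CM minus regular 0.22.

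Cd36, the fatty acid translocase gene, spanned a wider range of group levels than either relative when read as a fold, though not in CPM. Its level was 31.6, 22.2 and 7.03 CPM in the KO CM libraries, 56.4, 69.9 and 84.7 CPM in WT CM, 79.2, 76.1 and 80.8 CPM in regular and 1.13, 1.41 and 1.53 CPM in undifferentiated libraries. All KO CM libraries lay below all WT CM and all regular ones, and all lay above the undifferentiated ones. WT CM and regular libraries overlapped, with 2 WT CM libraries below and 1 above the regular range. These levels rest on few molecules in places: 32, 20 and 9 UMIs in KO CM and 2, 2 and 3 UMIs in undifferentiated libraries, against 83 to 193 in WT CM and 87 to 196 in regular libraries. Means were 20.3 ± 12.4 CPM in KO CM, 70.3 ± 14.2 CPM in WT CM, 78.7 ± 2.39 CPM in regular and 1.36 ± 0.208 CPM in undifferentiated cells. Regular cells held 54.5-fold the undifferentiated level, a log2 difference of 5.77 ± 0.39, the 115th highest of 9378 genes. KO CM stood at 24.6% of the regular level (-2.02 ± 0.26) and at 27.1% of the WT CM level (-1.88 ± 0.26). In KO CM minus WT CM, Cd36 was the 27th lowest of all genes tested. WT CM minus regular was -0.14 ± 0.19, a difference smaller than its standard error.

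The level of Cd36 varied among the KO CM libraries beyond counting error. The exact 95% Poisson interval ran from 21.6 to 44.6 CPM in replicate 1, from 13.6 to 34.3 CPM in replicate 2 and from 3.22 to 13.4 CPM in replicate 3, so those of replicates 1 and 3 do not meet. The intervals cover counting error only. The coefficient of variation of Cd36 in KO CM was 61.1%, against a median of 19.7% over 2077 genes of like level, among which it had the 13th highest. In the regular group the coefficient for Cd36 was 3.03%, and the median of genes of like level was 8.47%. The Poisson intervals of the regular libraries were 63.4 to 97.7, 65.8 to 87.5 and 67.8 to 95.5 CPM. Each is wider than the spread of these libraries, so the low coefficient is no measure of how even Cd36 was. Replicate 3 was also the lowest KO CM library for Fabp4 and Adipoq, but by little: Fabp4 stood at 6855.8, 6796.9 and 6033.7 CPM and Adipoq at 1789.0, 1759.4 and 1537.3 CPM in replicates 1, 2 and 3. The highest KO CM library over the lowest was 4.49-fold for Cd36, 1.14-fold for Fabp4, 1.16-fold for Adipoq and 1.12-fold for Pparg. Without KO CM replicate 3 the log2 difference of Cd36 was -1.53 against regular and -1.39 against WT CM. Without KO CM replicate 1 it was -2.54 against regular and -2.40 against WT CM. Without WT CM replicate 3, the library that stood apart, KO CM minus WT CM was -1.71 for Cd36 and WT CM minus regular -0.31. The remaining WT CM libraries, replicates 1 and 2, both lay below the regular ones. Their Poisson intervals, 44.9 to 69.9 and 57.4 to 84.3 CPM, meet those of all regular libraries.

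Scarb2, the lysosomal member, was higher in both CM groups than in either other group. Its level was 109.6, 130.9 and 125.8 CPM in the KO CM libraries, 139.9, 144.2 and 110.1 CPM in WT CM, 81.9, 79.2 and 76.6 CPM in regular and 47.4, 45.1 and 47.6 CPM in undifferentiated libraries. All 6 CM libraries lay above all regular ones, which in turn lay above the undifferentiated ones, and the CM groups overlapped. The counts were 111 to 161 UMIs in KO CM, 206 to 251 in WT CM, 90 to 204 in regular and 64 to 93 in undifferentiated libraries. Means were 122.1 ± 11.1 CPM in KO CM, 131.4 ± 18.6 CPM in WT CM, 79.2 ± 2.66 CPM in regular and 46.7 ± 1.36 CPM in undifferentiated cells. Against regular cells, Scarb2 was 1.54-fold in KO CM (0.63 ± 0.12) and 1.65-fold in WT CM (0.72 ± 0.11). Regular cells were at 1.69-fold of undifferentiated cells (0.75 ± 0.13). KO CM minus WT CM was -0.09 ± 0.11, within the spread of the libraries. Against undifferentiated cells Scarb2 was 2.6-fold in KO CM (1.38 ± 0.13) and 2.77-fold in WT CM (1.47 ± 0.12). Replicate 3 was the lowest WT CM library for Scarb2, and without it WT CM minus regular was 0.85 and KO CM minus WT CM -0.22.

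**Figure D1:**
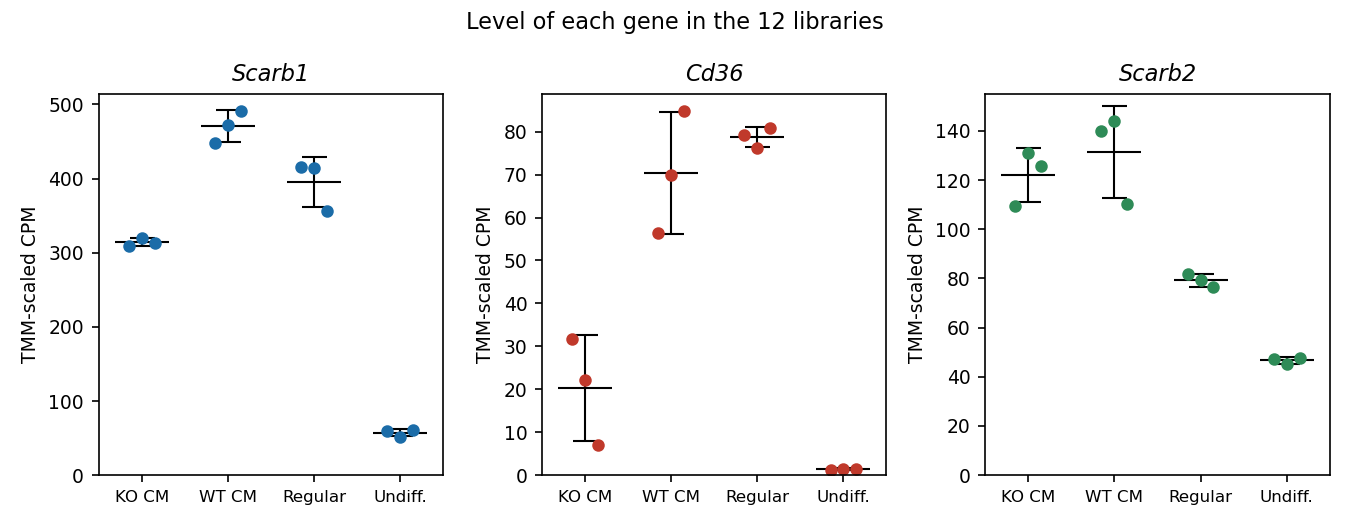
TMM-scaled CPM (vertical axis, from 0, with its own scale in each panel) of Scarb1, Cd36 and Scarb2 in KO CM, WT CM, regular and undifferentiated cells, where each point is 1 library and bars give the mean ± SD of 3. Scarb1 is lower in KO CM (309.0 to 319.5 CPM) than in regular cells (356.3 to 415.1 CPM), Cd36 is lower still (7.03 to 31.6 against 76.1 to 80.8 CPM), and Scarb2 is higher (109.6 to 130.9 against 76.6 to 81.9 CPM).

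The order of the group levels differed among the 3 genes. For Scarb1 it was WT CM, regular, KO CM and undifferentiated from high to low, with no neighbours overlapping. For Cd36 it was regular, WT CM, KO CM and undifferentiated, with only regular and WT CM overlapping. For Scarb2 it was WT CM, KO CM, regular and undifferentiated, with only the CM groups overlapping. Over the 6 pairs of groups, libraries did not overlap in 6 pairs for Scarb1, 5 for Cd36 and 5 for Scarb2. Among all 9378 genes tested, the percentage without overlap was 51.5% for KO CM and regular, 26.3% for KO CM and WT CM, 43.1% for WT CM and regular, 51.6% for KO CM and undifferentiated, 54.6% for WT CM and undifferentiated, and 63.2% for regular and undifferentiated. Groups without overlap were thus common in this table. The comparisons share groups and are not independent of each other.

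**Figure D2:**
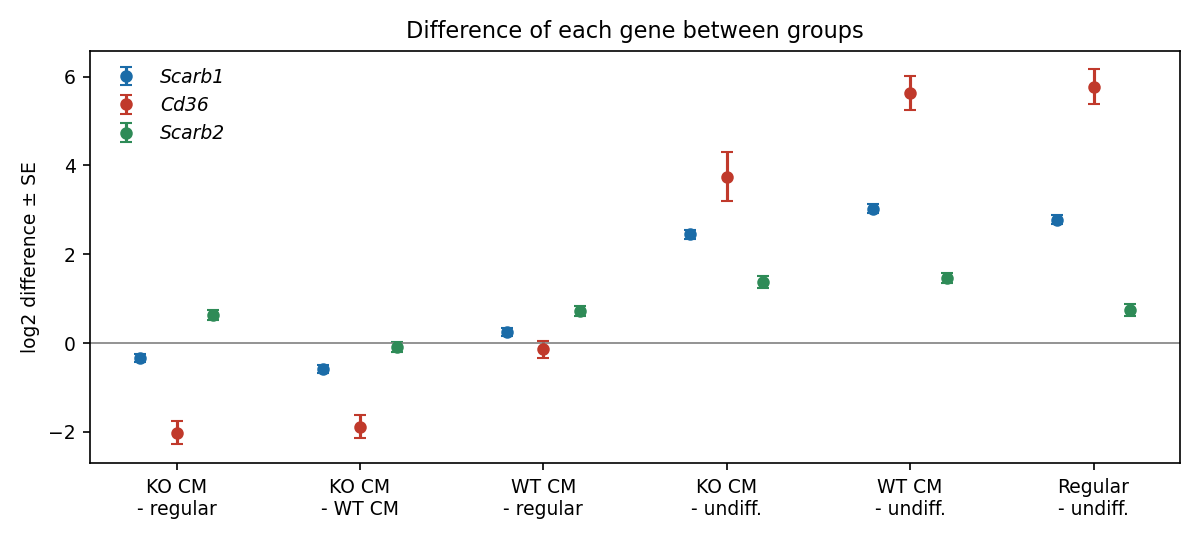
Log2 difference ± SE (vertical axis) of Scarb1, Cd36 and Scarb2 in the 6 comparisons of groups, with the first-named group over the second. Cd36 lies at -2.02 and Scarb2 at 0.63 in KO CM minus regular, and all 3 genes lie above 0 against undifferentiated cells.

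Ratios of 2 counts in the same library do not depend on library scaling and show whether the genes moved unequally. They were taken as log2 of counts plus 0.5, and only their differences between groups are read, not which gene is higher. The log2 ratio of Cd36 to Scarb1 was -3.27, -3.81 and -5.40 in the KO CM libraries, -2.98, -2.75 and -2.54 in WT CM, -2.38, -2.44 and -2.14 in regular and -5.40, -4.88 and -5.09 in undifferentiated libraries. Every KO CM library had a lower ratio than every WT CM and regular library. KO CM replicate 3 reached the range of undifferentiated cells, so those groups overlap. The difference in the mean log2 ratio was -1.84 for KO CM minus regular, -1.41 for KO CM minus WT CM and -0.44 for WT CM minus regular, each without overlap. How often ratios of other gene pairs separate these groups was not computed, so the lack of overlap is a description only. For regular minus undifferentiated it was 2.80, so Cd36 gained more than Scarb1 in differentiation.

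The ratio of Scarb2 to Scarb1 ran the other way. It was -1.49, -1.28 and -1.31 on the log2 scale in the KO CM libraries, -1.68, -1.71 and -2.16 in WT CM, -2.33, -2.38 and -2.21 in regular and -0.32, -0.19 and -0.35 in undifferentiated libraries. No groups overlapped, again without a share for other gene pairs, and the order from high to low was undifferentiated, KO CM, WT CM and regular. The mean was 0.95 higher in KO CM than in regular cells, 0.48 higher in KO CM than in WT CM and 0.46 higher in WT CM than in regular cells. The ratio of Cd36 to Scarb2 was -2.80 ± 1.18 in KO CM, -0.91 ± 0.48 in WT CM, -0.01 ± 0.07 in regular and -4.84 ± 0.21 in undifferentiated cells (SD, n = 3), and no groups overlapped. It follows from the ratios of Cd36 and of Scarb2 to Scarb1, so its separation of the groups is not independent of theirs. KO CM replicate 3 had the lowest Cd36 to Scarb2 ratio of the differentiated libraries, at -4.09.

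**Figure D3:**
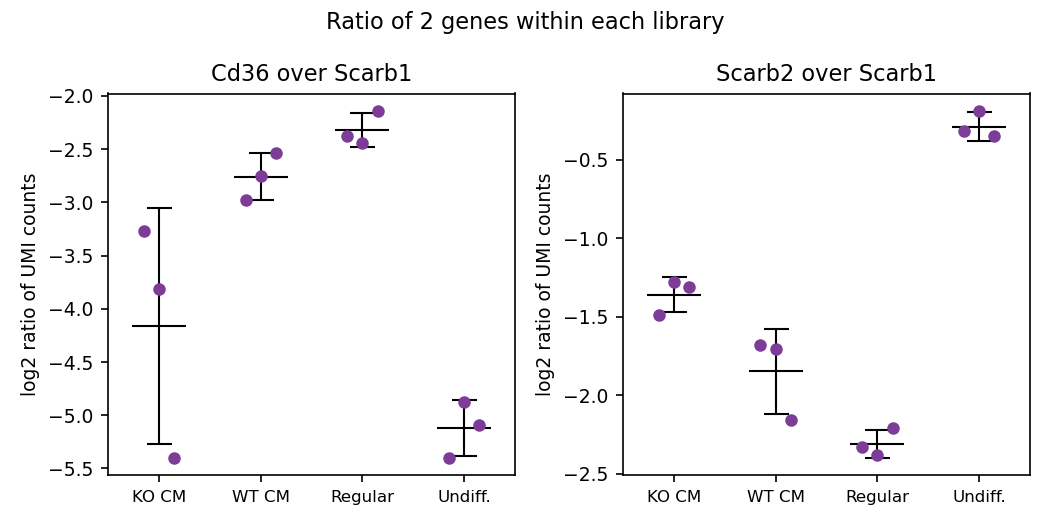
Log2 ratio of UMI counts within each library (vertical axis) for Cd36 over Scarb1 and Scarb2 over Scarb1, by group, where each point is 1 library and bars give mean ± SD of 3. The Cd36 to Scarb1 ratio is lower in KO CM (mean -4.16) than in regular cells (-2.32), while the Scarb2 to Scarb1 ratio is higher (-1.36 against -2.31).

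In all, 5 groups of genes that act with these receptors were read from a fit over all genes (edgeR's quasi-likelihood test with Benjamini-Hochberg adjustment, called at an adjusted p under 0.05). They are partners of Cd36 in fatty acid uptake, genes of lipoprotein and HDL cholesterol handling, genes of the lysosome, other scavenger receptors, and transcription factors known to regulate Cd36 or Scarb1. In regular minus undifferentiated cells, 29.6% of the 9378 genes rose and 28.0% fell (2774 and 2630 genes, or 2253 and 3332 with libraries scaled by their totals alone). Around Cd36, 12 of 27 fatty acid uptake genes rose and 13 fell, with a median log2 difference of -0.27 against -0.01 for all genes. Those that rose included Fabp4, a carrier of fatty acids in the cytosol (7.94 ± 0.09), Acsl1, which activates them with coenzyme A (6.43 ± 0.13), lipoprotein lipase (Lpl, 4.14 ± 0.11), the caveolar coat gene Cav1 (1.65 ± 0.09) and the transporter Slc27a1 (1.98 ± 0.21), with adjusted p of 2.2e-11 or lower. Thbs1, which encodes the CD36 ligand thrombospondin 1, fell by 3.40 ± 0.11 (adjusted p = 1.16e-29). Zdhhc4 and Zdhhc5, which palmitoylate CD36, had -0.27 ± 0.13 and -0.05 ± 0.11 (adjusted p = 0.0782 and 0.704). Around Scarb1, 16 of 25 lipoprotein and HDL genes rose and 5 fell (median 1.49), among them the cholesterol exporter Abca1 (3.88 ± 0.22) and Apoe (3.82 ± 0.29). Pdzk1, a scaffold that holds SR-BI at the membrane of liver cells, had 54 UMIs in regular and 1 in undifferentiated libraries, a ratio of 51.8 with a counting interval of 8.91 to 2084.4. Around Scarb2, 7 of 29 lysosome genes rose and 12 fell (median -0.14), with the lysosomal membrane gene Lamp2 at -0.77 ± 0.09 (adjusted p = 5.8e-10) while Scarb2 itself was higher. Of 23 regulators, 14 rose and 4 fell (median 0.50). Those that rose included Pparg at 4.61 ± 0.11, Cebpa at 5.82 ± 0.17, the liver X receptor gene Nr1h3 at 3.63 ± 0.16 and Srebf1 at 2.52 ± 0.11. Among those that fell was Srebf2, at -0.77 ± 0.15 (adjusted p = 2.35e-05). Of 12 other scavenger receptors, 2 rose and 7 fell (median -0.79).

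With WT CM, Cd36 stayed near its regular level while several of its partners and regulators fell and others rose. In WT CM minus regular, 17.2% of genes rose and 15.4% fell. Of 27 fatty acid uptake genes, 9 rose and 9 fell (median 0.03 against 0.01 for all genes). Fabp4 fell by 0.35 ± 0.07, Acsl1 by 0.86 ± 0.09 and Lpl by 0.65 ± 0.09 (adjusted p = 4.84e-05 or lower), whereas Thbs1 rose by 3.12 ± 0.11. Of 23 regulators, 5 rose and 8 fell (median 0.09), with Pparg at -0.71 ± 0.08, Cebpa at -0.52 ± 0.10 and Nr1h3 at -0.49 ± 0.11 (adjusted p = 0.000522 or lower), while Scarb1 was higher in all 3 WT CM libraries. Regulators that rose included Ahr by 3.66 ± 0.44, from 92 UMIs against 7, and Hif1a by 1.01 ± 0.20 (adjusted p = 0.000271 or lower). Of 25 lipoprotein and HDL genes, 5 rose and 10 fell (median -0.05), with Abca1 at -1.08 ± 0.15 and Apoe at -1.86 ± 0.22. Apoa4, an apolipoprotein gene, fell by 5.39 ± 0.29, with 9 UMIs in WT CM against 400 in regular libraries. Of 29 lysosome genes, 15 rose and 2 fell (median 0.33), with Lamp2 at 0.63 ± 0.09 and the protease gene Ctsd at 0.33 ± 0.08 beside the higher Scarb2. Of 12 other scavenger receptors, 8 rose and 4 were not called (median 1.14), among them Scara5 (1.63 ± 0.09), Ssc5d (1.96 ± 0.15) and Cd14 (1.57 ± 0.20). The call of Pdzk1 (-1.06 ± 0.41, adjusted p = 0.0405) was lost in 7 of 12 alternatives, with adjusted p of 0.0179 to 0.245 over them.

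With KO CM, Cd36 and Scarb1 were lower than in regular cells and Scarb2 was higher, while genes of fatty acid uptake and of lipoprotein handling went both ways and more lysosome genes rose than fell. In KO CM minus regular, 22.2% of genes rose and 21.0% fell (2080 and 1971 genes, or 1693 and 2463 with libraries scaled by their totals alone). Of 27 fatty acid uptake genes, 8 rose and 9 fell (median -0.03 against -0.00 for all genes). Acsl1 fell by 2.00 ± 0.10, close in size to the -2.02 ± 0.26 of Cd36, and Fabp4 fell by 1.16 ± 0.07 and Lpl by 0.87 ± 0.09 (adjusted p = 3.71e-11 or lower). Slc27a1 had -0.15 ± 0.18 (adjusted p = 0.531), and Zdhhc4 and Zdhhc5 had 0.23 ± 0.14 and -0.19 ± 0.13 (adjusted p = 0.203 and 0.227). Thbs1 rose by 3.78 ± 0.11 and Thbs3 by 2.67 ± 0.24. Of 25 lipoprotein and HDL genes, 6 rose and 11 fell (median -0.18), with Abca1 at -1.64 ± 0.18 and Pdzk1 at -2.61 ± 0.60 from 5 UMIs against 54. Of 23 regulators, 6 rose and 9 fell (median 0.02), with Pparg at -1.57 ± 0.09, Cebpa at -1.56 ± 0.11 and Nr1h3 at -1.08 ± 0.13, while Cebpb was at 0.51 ± 0.08 (adjusted p = 1.5e-06 or lower for each). The nuclear receptor corepressor gene Nrip1 fell by 1.67 ± 0.25, and the aryl hydrocarbon receptor gene Ahr had 86 UMIs against 7. Of 29 lysosome genes, 19 rose and 3 fell (median 0.58), with Lamp1 at 0.32 ± 0.08, Lamp2 at 0.99 ± 0.09 and Ctsd at 0.56 ± 0.08. Tfeb, a transcription factor of lysosome genes, fell by 1.12 ± 0.27 (adjusted p = 0.000579), whereas Mitf and Tfe3 of the same list rose. Mitf had a mean of 26.2 CPM in KO CM against 11.9 CPM in regular cells (adjusted p = 0.000342). Tfe3 had 82.3 against 63.7 CPM (adjusted p = 0.0273), with overlapping libraries. Of 12 other scavenger receptors, 8 rose and 1 fell (median 1.52).

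**Figure D4:**
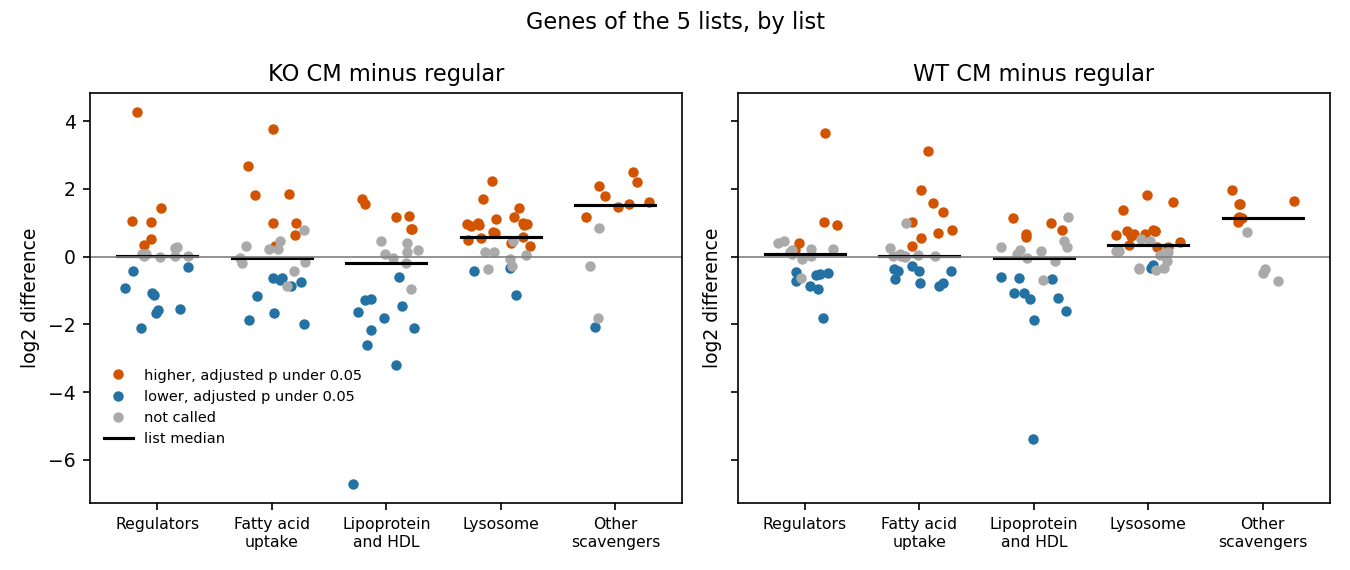
Log2 difference (vertical axis) of each tested gene of the 5 gene groups in KO CM minus regular (left) and WT CM minus regular (right), where each point is 1 gene, colour gives the edgeR call at an adjusted p under 0.05 and the bar gives the group's median. The medians of the lysosome genes (0.58 with KO CM, 0.33 with WT CM) and of the other scavenger receptors (1.52 and 1.14) lie above 0, and the lowest point in each panel is Apoa4, at 2 UMIs in KO CM and 9 in WT CM.

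Between the CM groups, which differ in the p53 genotype of the cells that conditioned the medium, Cd36 and Scarb1 were lower in KO CM and Scarb2 overlapped. In KO CM minus WT CM, 5.86% of genes rose and 6.62% fell (550 and 621 genes, or 356 and 818 with libraries scaled by their totals alone). Of 27 fatty acid uptake genes, 4 rose and 7 fell (median -0.10 against 0.01 for all genes), with Fabp4 at -0.81 ± 0.07, Acsl1 at -1.15 ± 0.10 and Cavin2, a caveolar coat gene, at -0.87 ± 0.12 (adjusted p = 2.15e-06 or lower). The -1.88 ± 0.26 of Cd36 was larger in size than these 3. Thbs1 rose by 0.66 ± 0.09 (adjusted p = 3.28e-07). Lpl had -0.22 ± 0.09 (adjusted p = 0.108) and Slc27a1 0.27 ± 0.19 (adjusted p = 0.406). Of 25 lipoprotein and HDL genes, 2 rose and 5 fell (median -0.13), among them Gramd1b at -0.89 ± 0.12, which moves cholesterol from the plasma membrane to the endoplasmic reticulum, and Apoc1 at -0.65 ± 0.10 (adjusted p = 6.15e-06 or lower), beside the -0.59 ± 0.09 of Scarb1. Of 23 regulators, 2 rose and 5 fell (median -0.11), with Pparg at -0.87 ± 0.09, Cebpa at -1.04 ± 0.11, Nr1h3 at -0.60 ± 0.14 and Srebf1 at -0.46 ± 0.11 among those that fell. Those that rose were Cebpd at 2.04 ± 0.46 (adjusted p = 0.00126), from 41 UMIs in KO CM and 16 in WT CM, and Cebpb at 0.30 ± 0.08 (adjusted p = 0.00923). Over the alternatives, the adjusted p ran from 0.000543 to 0.0532 for Cebpd and from 0.000285 to 0.0552 for Srebf1, both highest without KO CM replicate 3, and from 0.0025 to 0.0794 for Cebpb, highest without WT CM replicate 2. Of 29 lysosome genes, 6 rose and 23 were not called (median 0.21), among them Lamp2 at 0.37 ± 0.09 and progranulin (Grn) at 0.36 ± 0.08. Without KO CM replicate 3, 2 lysosome genes and 4 regulators were called, and 756 genes in place of 1171. Of 12 other scavenger receptors, 5 rose and 1 fell (median 0.16), with Cd14 at 0.93 ± 0.17. Olr1, a receptor for oxidized lipoprotein, had -1.60 ± 0.46 (adjusted p = 0.0147), a call lost in 4 of 12 alternatives.

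The genes with the profile most like each member were ranked by the root mean square difference of centred log2 CPM over the 12 libraries, among 6296 genes with a mean of at least 20 CPM. For Scarb1 they were Cldn15 (0.17), Cish (0.19), Kcnk3 (0.19), Mgst1 (0.22) and Sema6d (0.22). Cldn15 had 273.1 CPM in KO CM, 396.5 in WT CM, 375.7 in regular and 53.2 in undifferentiated cells, the same order of groups as Scarb1. For Cd36 they were Scd1 (0.47), Mcam (0.48), Ces1f (0.51), Abhd15 (0.55) and Cox7a1 (0.56), all less close than the nearest genes of Scarb1. Scd1, which encodes a fatty acid desaturase, had 680.7 CPM in KO CM, 1780.4 in WT CM, 2159.3 in regular and 49.2 in undifferentiated cells. For Scarb2 they were Prelp (0.11), P4ha2 (0.12), Col4a2 (0.12), Ticam1 (0.15) and Npepps (0.15). Prelp, a matrix protein gene, had 504.7 CPM in KO CM, 496.5 in WT CM, 330.0 in regular and 190.7 in undifferentiated cells. The members were not near each other by this measure, at 1.01 for Scarb1 and Cd36, 0.76 for Scarb1 and Scarb2 and 1.70 for Cd36 and Scarb2.

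The authors' deposited table gives log2 fold changes of the same groups with the later group as the denominator, so its signs run the other way. For WT CM over KO CM, the authors' deposited table lists 0.58 for Scarb1, 1.85 for Cd36 and 0.09 for Scarb2. For regular over KO CM, the authors' deposited table lists 0.36 for Scarb1, 2.03 for Cd36 and -0.60 for Scarb2. For regular over WT CM, the authors' deposited table lists -0.22, 0.19 and -0.69 in the same order of genes. For undifferentiated over regular cells, the authors' deposited table lists -2.75, -5.83 and -0.73. Each value lies within 1 SE of the difference fitted here with its sign turned.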

How the data were processed

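RNA of 12 libraries of 3T3-L1 cells, 3 per group, was measured by MARS-seq from 30 ng of RNA, per the labels' protocols. The method sequences transcript 3′ ends and uses unique molecular identifiers (UMIs) to drop PCR copies. Per the submitters' processing notes, the tools included DESeq2, HTSeq and cutadapt (no versions given) on build mm10. The aligner is not given in the sources used here. The counts used are raw UMI counts, not normalized by the authors, per the file headers. The same deposited table has the authors' log2 fold changes for 6 comparisons. A further 24 columns of per-sample values were not used. Every gene in the table reaches at least 6 counts in some library, and genes below that were not analysed here.

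Counts were fitted in R 4.3.3 with edgeR 4.0.16: 9378 genes passed filterByExpr, TMM set the scale of each library, and 1 robust quasi-likelihood fit with a mean per group covered all 12, with a common biological coefficient of variation of 9.38%. p-values were adjusted over all genes tested by Benjamini-Hochberg and genes called under 0.05. The fit was tested on simulated data. The receptors and the 5 gene lists were chosen with earlier results of these data known, so the receptors were not tested and no list was tested as a set. The text names the 3 receptors and the 5 nearest profiles of each. From the lists it draws on a fixed set of genes by role. It also draws on up to 3 called genes with the largest log2 difference in each list and comparison. Not all of these list genes are named in each comparison, so those named are not always the extremes of a list. Mitf and Tfe3 are also named, beside Tfeb, and their values under the alternatives are not given. Adipocyte, preadipocyte, macrophage, endothelial and epithelial markers were summed per library. Lrp1 and Cd68 stand in 2 lists. Some list genes are counted but not reported here by name. For a gene at no more than 3 counts in a group, the ratio of counts is given with its exact 95% interval, which covers counting error only. Alternatives were total-count scaling, DESeq2 size factors, no filter, a replicate block, the DESeq2 1.42.0 Wald test, a fit of the groups compared alone, and leaving out each library.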

Additional observations from a re-analysis of the deposited data

How the results depend on the processing

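Of 215 log2 differences of Scarb1, Cd36 and Scarb2 under alternative settings, 207 moved by less than 1 SD of the gene's log2 level between replicates, combined over both groups, 8 moved further and 0 changed sign. That SD is wide for Cd36 in KO CM, so its shifts count as small there: leaving out 1 library gave -2.54 to -1.53 in KO CM minus regular and -2.40 to -1.39 in KO CM minus WT CM. Scaling by total counts alone shifted the median of all genes by -0.16 in regular minus undifferentiated, -0.11 in KO CM minus regular and -0.08 in KO CM minus WT CM. The shift was -0.20 in WT CM minus undifferentiated and -0.28 in KO CM minus undifferentiated. This scaling accounts for 6 of the 8, among them Scarb1 in KO CM minus WT CM, at -0.66 in place of -0.59. Genes called in KO CM minus WT CM numbered 1171, and 756 to 1058 when 1 library was left out. The lysosome genes called there numbered 6, and 2 to 8, and the regulators 7, and 4 to 7, with a library left out. The replicate numbers did not pair the libraries: correlations of deviations were -0.0657 to 0.0553 for 18 pairs with the same number and -0.0576 to 0.0556 for 36 with different numbers. With a replicate block, 4058 genes were called in KO CM minus regular against 4051 and 1217 in KO CM minus WT CM against 1171. The DESeq2 Wald test called 788 in KO CM minus WT CM, with 548 genes given no adjusted p.

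The named genes that changed sign under an alternative were all uncalled in that comparison. In WT CM minus regular, total counts gave -0.02 for Zdhhc4 and -0.03 for Zdhhc5, DESeq2 size factors gave -0.01 and -0.03, and the DESeq2 Wald test gave -0.01 and -0.02. There Slc27a4 was -0.00 with the replicate block and -0.01 with the DESeq2 Wald test. With a library left out of that comparison, the ranges were -0.16 to 0.20 for Nfe2l2, -0.13 to 0.32 for Slc27a4, -0.05 to 0.16 for Zdhhc4 and -0.05 to 0.09 for Zdhhc5. In KO CM minus regular, Nfe2l2 was -0.10 with total counts, -0.01 with DESeq2 size factors and -0.08 to 0.10 with a library left out. In KO CM minus WT CM, Apoe was -0.02 with total counts, and with a library left out the ranges were -0.14 to 0.29 for Apoe, -0.65 to 0.38 for Abcg1, -0.19 to 0.18 for Nfe2l2 and -0.29 to 0.06 for Srebf2. The cause of these shifts was not tested. Cd36 in undifferentiated cells rests on 7 UMIs in all, which limits the precision of its difference from that group.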

Other observations

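The genes nearest to Cd36 in profile kept their level across the KO CM libraries better than Cd36 did. In replicates 1, 2 and 3 of KO CM, Scd1 stood at 780.0, 718.8 and 543.2 CPM, Mcam at 28.6, 23.3 and 16.4 CPM, and Ces1f at 38.5, 38.8 and 28.9 CPM. The highest library over the lowest was 1.44-fold for Scd1, 1.74-fold for Mcam and 1.34-fold for Ces1f, against 4.49-fold for Cd36. Cebpa ran the other way, at 73.1, 97.6 and 101.6 CPM in the same libraries, and Plin1, a lipid droplet coat gene, stood at 76.0, 68.8 and 66.4 CPM. In WT CM, Cd36 had a coefficient of variation of 20.1%, against a median of 10.1% over genes of like level, and Scarb2 one of 14.1% against 8.17%. Scarb1 was the more even receptor there, at 4.65% against 6.48%.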
